A study of Mus musculus with 5 samples.

Results

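This report describes 10 genes of glucocorticoid signalling in nuclei of the mouse central amygdala (CeA), a brain region that takes part in feeding and in fear. The genes were 2 receptors, Nr3c1 and Nr3c2, and 8 genes that glucocorticoids are known to induce, Fkbp5, Zbtb16, Sgk1, Klf9, Tsc22d3, Errfi1, Ddit4 and Tiparp. They were chosen by name, with their fed and fasted levels in an earlier analysis of these data known, and all 10 were among the 22532 genes of the files. Single-nucleus RNA was sequenced in 3 libraries of fed and 2 of fasted mice, each from the pooled CeA of a male and a female. Fed replicates 1 and 2 came from naive mice of 8 weeks, and fasted replicates 1 and 2 from mice of 8 weeks without food for 20 and 21 hours. Fed replicate 3 came from Htr2a-Cre mice of 12 weeks that carried AAV-DIO-mCherry, a virus that makes a red protein only in cells with Cre. Both the age and the virus therefore set this fed library apart from the others.

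Glucocorticoids are steroid hormones of the adrenal cortex that rise in stress and when food is short. They enter cells and bind the glucocorticoid receptor, encoded by Nr3c1, and with higher affinity the mineralocorticoid receptor, encoded by Nr3c2. The bound receptor moves to the nucleus and binds DNA at glucocorticoid response elements, pairs of inverted half-sites with a short spacer. Fkbp5, a co-chaperone of the receptor complex that lowers its affinity for the hormone, is induced by the receptor and so closes a feedback loop.

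Matches to such an element near the gene starts are shown because they are the DNA letters through which the receptor is known to act. The sequence was searched on GRCm39 within 10 kb on either side of the annotated start of 22383 genes. Only the outermost annotated start of each gene was used. A strict motif was used, AGAACA and TGTTCT with 3 bases of any kind between them, and a loose one, GNACA and TGTNC with 3 bases between them. Both read the same on either strand, and each strict match is also a loose match. The strict motif was found near this start in 80 genes (0.357%) and in none of the 9 genes searched among the 10 (Nr3c1 is left out). The loose motif was found near 28.5% of all genes and near 3 of the 9. Fkbp5 held 5 loose matches, and 6 of all genes (0.0268%) held as many or more. The 30 bases around each match read as follows on the strand of the gene, with the match in capitals.
Fkbp5 at chr17:28732869-28732898, intron, centre 4638 bases after the start: ctctctgggGGACACTGTGTTCtgggcagc
Fkbp5 at chr17:28737146-28737175, intron, 361 bases after the start: tctcgcccgGGACATTGTGTTCcagcccca
Fkbp5 at chr17:28737998-28738027, upstream: actctccagGCACAGGGTGTCCctaggggt
Fkbp5 at chr17:28741094-28741123, upstream: agggaaggaGGACAAAGTGTTCcatgctca
Fkbp5 at chr17:28742144-28742173, upstream: ccggcggcgGCACAGGATGTTCtttcgctc
Klf9 at chr19:23112449-23112478, upstream: ggtaaaaaGGACAAACTGTTCcacaacaac
Sgk1 at chr10:21765163-21765192, intron, 7094 bases after the start: ctgggagtGCACAGCCTGTGCcccacacca
These matches are a description of letters and were tested against no measurement.

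Sgk1, the serum- and glucocorticoid-regulated kinase, has several starts, and 1 of its RefSeq promoter windows holds the strict motif. That window lies outside the stretch searched above. It is shown because only 3 of 32851 RefSeq windows (0.00913%) hold the strict motif. The 250 bases before that start lie at chr10:21993640-21993889 of GRCm38.p6, on the plus strand, with the match in capitals centred 182 bases before the start.
Sgk1 upstream: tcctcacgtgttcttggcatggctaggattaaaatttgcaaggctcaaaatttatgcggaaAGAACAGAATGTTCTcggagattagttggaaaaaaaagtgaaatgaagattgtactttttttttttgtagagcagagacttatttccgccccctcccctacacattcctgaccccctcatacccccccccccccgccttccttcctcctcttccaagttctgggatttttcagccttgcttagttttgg

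Of 23839 barcodes, 7161 nuclei with 500 to 8000 genes and a mitochondrial share below 0.8% were kept, 1130 to 1734 per library, with 9763452 to 29703855 UMIs (unique molecular identifiers, each 1 captured RNA molecule). Fasted libraries had higher median mitochondrial shares (0.237% and 0.317%) than fed ones (0.0529% to 0.136%), and 3 barcodes occurred in 2 libraries. Nuclei were assigned by marker scores to 5647 neurons with Gad1 or Gad2, 479 astrocyte-like, 206 oligodendrocyte-like and 136 precursor-like nuclei, named without "like" from here on. Of the neurons, marker genes placed part in 12 gates with at least 10 nuclei in every library, and a gate is called by its genes. A further gate, Vdr, held 96 nuclei and as few as 9 in a library and was not tested, and 2183 neurons fell in no gate. Summed astrocyte markers reached 6905 to 10205 CPM (counts per 1000000 UMIs of the class) in astrocytes and 96.8 to 158 CPM in the neurons, which describes the assignment and is no check of it, since these markers made it. Levels are CPM of the UMIs summed per class and library, and SD is over the 3 fed libraries.

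The comparison of fasted with fed mice asked how the hormone's receptors and targets stand in a hungry animal. In the Gad1/Gad2 neurons, Fkbp5, Zbtb16, Klf9 and Tsc22d3 were higher in both fasted than in all fed libraries and Nr3c2 was lower. None passed with the main fit, the edgeR quasi-likelihood test with replicates unpaired and low counts filtered. Other unpaired fits called Fkbp5 and Tsc22d3. With the edgeR quasi-likelihood test, 0 of 10 genes had an adjusted p under 0.05, where 0.0074% of 13520 genes did. At an unadjusted p under 0.05 the count was 5 of 10 against 5.3% of genes, and DESeq2 and the likelihood ratio test each called 2, Fkbp5 and Tsc22d3, against 0.704% and 1.08% of genes. With no filter on low counts 2 passed, against 0.515% of genes. With the preparation batch as a block, which sets each fasted library against the fed library of the same replicate number, taken to have been prepared with it, Fkbp5, Zbtb16, Klf9 and Tsc22d3 rose (4 of 10, against 2.9% of genes). The genes were chosen with earlier results of this contrast known, so all these tests describe them and are no independent evidence.

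Of the receptors, Nr3c1 stood at 130, 126 and 140 CPM in the neurons of fed replicates 1, 2 and 3 and at 121 and 130 CPM in fasted replicates 1 and 2. The ranges overlapped, and the log2 fold change was -0.09 ± 0.11 (SE; adjusted p = 0.999). Nr3c2 was measured at 479, 531 and 504 CPM in fed and 385 and 435 CPM in fasted libraries. Both fasted libraries lay below all fed ones, as for 6.61% of genes, with a log2 fold change of -0.32 ± 0.11 (adjusted p = 0.730, and 0.0619 with the block).

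Fkbp5 gave 92.9, 110 and 58.3 CPM in the fed libraries and 187 and 193 CPM in the fasted ones. The fasted mean was 2.19 times the fed mean, and fed replicate 3 was the lowest library. Its log2 fold change was 1.11 ± 0.23 (adjusted p = 0.312), 0.88 ± 0.09 with the block (adjusted p = 9.57e-10) and 0.89 without fed replicate 3 (adjusted p = 1.000). The UMIs behind these levels were 804, 1704 and 1146 in fed and 1869 and 5190 in fasted libraries.

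Among the transcriptional regulators, Zbtb16, a zinc finger repressor, stood at 162, 173 and 92.3 CPM in fed and 273 and 224 CPM in fasted neurons. Its log2 fold change was 0.79 ± 0.25 (adjusted p = 0.630), and 0.54 with the block (adjusted p = 0.000103). Klf9, a zinc finger factor that answers to both glucocorticoid and thyroid hormone, ran from 43.9 to 48.4 CPM in fed libraries and reached 66.8 and 60.5 CPM in fasted ones. The 3 fed libraries of Klf9 were close together and the fasted ones apart from them, at a log2 fold change of 0.47 ± 0.13 (adjusted p = 0.466, and 0.00247 with the block). Tsc22d3, which encodes the anti-inflammatory protein GILZ, was rare in neurons, with 1.96, 2.89 and 2.29 CPM in fed and 5.72 and 5.97 CPM in fasted libraries. Its log2 fold change of 1.25 ± 0.25 (adjusted p = 0.312, and 0.00515 with the block) stood beside more RNA of astrocyte and oligodendrocyte markers in the fasted neurons. Summed astrocyte markers in the neurons were 96.8 to 115 CPM in fed and 129 and 158 CPM in fasted libraries, or 1.04% to 1.64% and 1.71% to 1.79% of their level in astrocytes. Tsc22d3 in the neurons amounted to 1.39% to 5.00% of its astrocyte level in fed and 3.03% and 3.94% in fasted libraries. Summed oligodendrocyte markers in the neurons were 131 to 166 CPM in fed and 192 and 221 CPM in fasted libraries, or 0.710% to 2.00% and 1.57% and 1.59% of their level in oligodendrocytes. Neuronal Tsc22d3 amounted to 0.952% to 2.26% of its oligodendrocyte level in fed and 4.02% and 4.04% in fasted libraries, so the fasted libraries were above the fed ones in this share. Fkbp5 in the neurons amounted to 141% to 203% of its astrocyte level in fed and 72.4% and 96.9% in fasted libraries. The part of glial RNA in the difference of Tsc22d3 was not tested.

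The kinase and enzyme genes had smaller differences in neurons. Sgk1 ranged from 171 to 205 CPM in fed and stood at 179 and 160 CPM in fasted neurons, with a log2 fold change of -0.15 ± 0.13 (adjusted p = 0.999). Errfi1, an inhibitor of the epidermal growth factor receptor, and Tiparp, an enzyme that attaches ADP-ribose, had overlapping ranges and log2 fold changes of 0.31 and 0.38. Ddit4, an inhibitor of the growth kinase mTORC1, was higher in both fasted libraries (5.12 and 4.19 CPM) than in fed ones (3.35 to 3.86 CPM), by 0.29 ± 0.24 on the log2 scale. In all, 5 of the 10 genes had fasted libraries above all fed ones and 1 below, against 11% and 6.61% of genes. The median log2 fold change was 0.34 over the 10 genes and -0.01 over all genes.

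**Figure D1:**
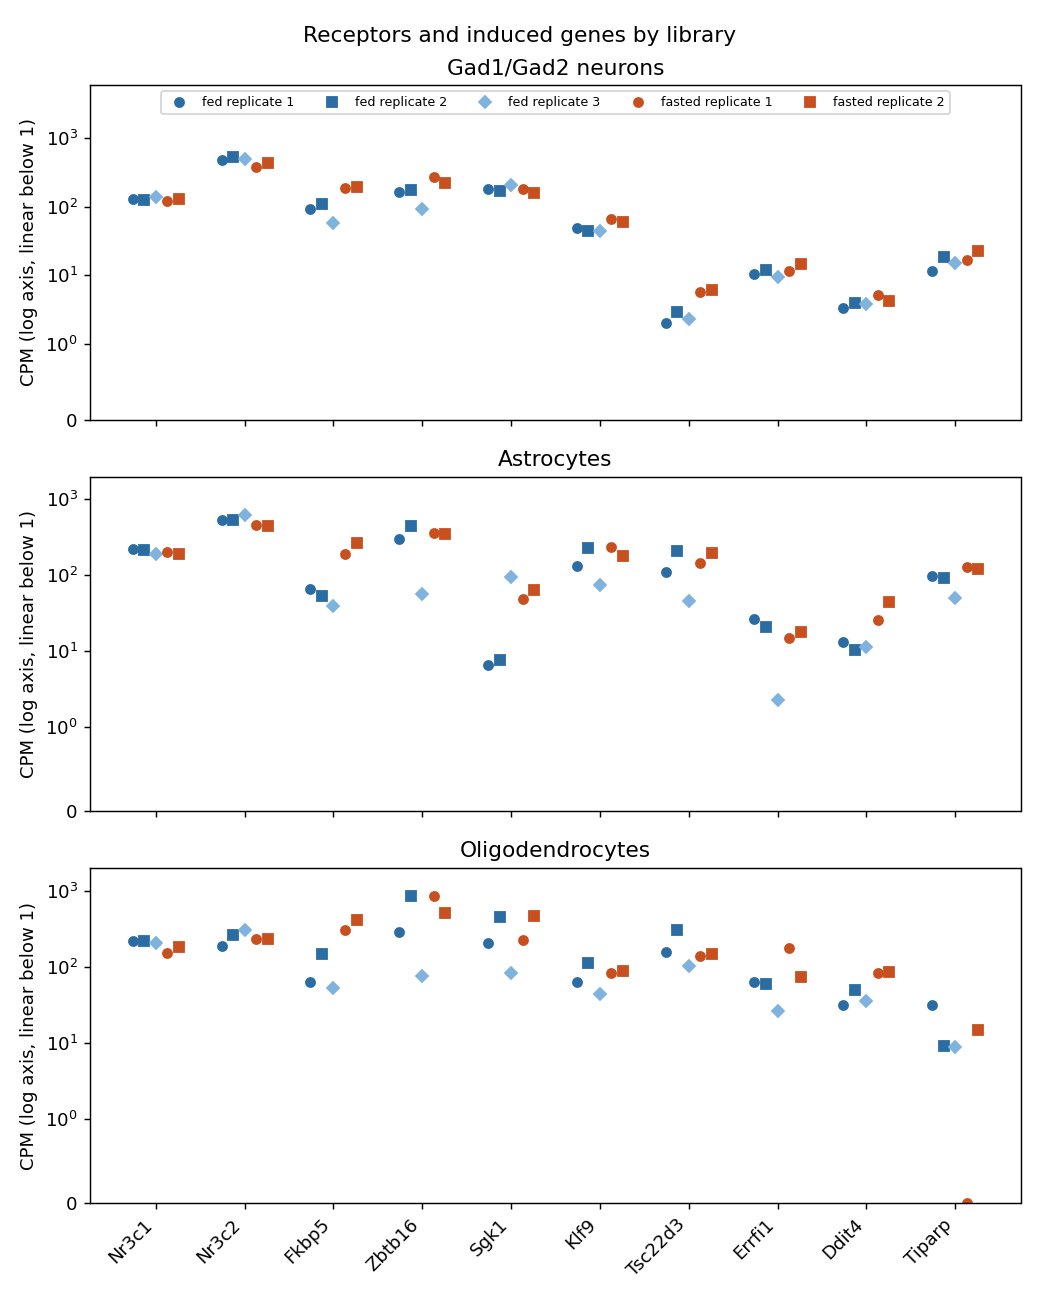
CPM of each gene in each library (log axis, linear below 1) for Gad1/Gad2 neurons, astrocytes and oligodendrocytes, blue for fed and orange for fasted libraries, circles, squares and diamonds for replicates 1, 2 and 3. Fkbp5 is higher in both fasted than in all fed libraries in each panel, and in glia fed replicate 3 (light diamonds) lies lowest for Fkbp5, Zbtb16, Klf9 and Tsc22d3.

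In astrocytes, which take up glutamate and feed neurons, Fkbp5 had the largest log2 fold change of the 9 genes tested, at 66.0, 53.9 and 39.0 CPM in fed and 193 and 266 CPM in fasted libraries. The fasted mean was 4.34 times the fed mean, and the groups were far apart. Of the 9 genes tested, 0 passed with the quasi-likelihood test, as did 0 of 6730 genes (0.0%), and 2 had an unadjusted p under 0.05 against 5.04% of genes. DESeq2, the likelihood ratio test and the fit with no filter on low counts each called 1, Fkbp5, against 0.464%, 1.1% and 0.932% of genes. With the block 2 passed, Fkbp5 and Sgk1, where 4.59% of genes did. Both fasted libraries lay above all fed ones for 3 genes and below for 1, against 10.1% and 9.73% of genes. The log2 fold change of Fkbp5 was 2.18 ± 0.32 (adjusted p = 0.155), with UMIs of 10, 21 and 17 in fed and 52 and 209 in fasted libraries. Its adjusted p was 0.00587 with DESeq2, and it passed with the block (2.00 ± 0.32, adjusted p = 0.000285). It also passed without fed replicate 3 (1.98, adjusted p = 0.00560) and without fasted replicate 1 (2.34, adjusted p = 0.0266). Over all settings tried its log2 fold change lay between 1.67 and 2.34, and its adjusted p between 6.21e-07 and 1.000.

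RNA of neurons and of oligodendrocytes in the astrocytes was measured beside this. The inhibitory neuron markers summed to 48.7, 52.8 and 140 CPM in fed astrocytes and 115 and 181 CPM in fasted ones, 10.1% to 31.7% and 25.7% to 36.2% of their level in neurons. Astrocyte Fkbp5 amounted to 49.2% to 71.0% of its neuronal level in fed libraries. It was close to the neuronal level in fasted replicate 1 (103%) and above it in fasted replicate 2 (138%). Oligodendrocyte markers in astrocytes summed to 128 to 158 CPM in fed and 309 and 468 CPM in fasted libraries, 0.709% to 1.58% and 2.21% and 3.83% of their level in oligodendrocytes. Astrocyte Fkbp5 amounted to 36.0% to 104% of its oligodendrocyte level in fed and 63.1% and 63.4% in fasted libraries. These markers were higher in both fasted libraries, and their part in the difference of Fkbp5 was not tested.

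Single libraries moved the values of other genes in astrocytes. Zbtb16 was measured at 297, 441 and 57.3 CPM in fed and 357 and 345 CPM in fasted astrocytes, and its log2 fold change of 0.39 turned to -0.14 without fed replicate 3. Sgk1 was at 6.60 and 7.70 CPM in fed replicates 1 and 2, 96.3 CPM in fed replicate 3 and 48.4 and 63.6 CPM in fasted libraries. With the block, Sgk1 passed at a log2 fold change of 2.91 (adjusted p = 0.00301), and it rested on 1 and 3 UMIs in the fed libraries that enter the pairs. Without fed replicate 3 it was 2.90 (adjusted p = 0.0119), and without the block 0.43 ± 0.76. Klf9 and Tsc22d3 overlapped between the groups, with fed replicate 3 lowest in both. Ddit4 lay at 10.3 to 13.2 CPM in fed and at 26.0 and 44.6 CPM in fasted astrocytes, a log2 fold change of 1.69 ± 0.53 (adjusted p = 0.525). It rested on few UMIs, as the astrocytes of a library summed to 151588 to 785611 UMIs over all genes. Ddit4 was too sparse for a test with thinned counts and without fed replicate 2, fed replicate 3 or fasted replicate 2. Nr3c1 (-0.10 ± 0.25) and Nr3c2 (-0.33 ± 0.23) had log2 fold changes below zero, as in the neurons (-0.09 and -0.32). Errfi1 was too sparse to be tested.

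In oligodendrocytes, the myelin-forming glia, Fkbp5 was again higher in both fasted than in all fed libraries. It gave 63.4, 150 and 52.9 CPM in fed and 306 and 420 CPM in fasted libraries. The log2 fold change was 1.96 ± 0.48 (adjusted p = 0.287), and 1.62 ± 0.37 with the block (adjusted p = 0.000781). These levels came from 23 to 65 nuclei per library and from 4, 33 and 12 UMIs in fed and 26 and 226 UMIs in fasted libraries. Of 9 genes tested, 0 passed with the quasi-likelihood test, 2 had an unadjusted p under 0.05 (against 5.1% of genes), DESeq2 called 0 (0.0% of genes), and the likelihood ratio test and the fit with no filter each called 1 (1.04% and 0.446% of genes). With the block 1 passed, Fkbp5, where 10.1% of genes did. Both fasted libraries lay above all fed ones for 3 genes and below for 1, Nr3c1, against 10.5% and 10.0% of genes. Sgk1 was measured at 206, 454 and 83.8 CPM in fed and 224 and 468 CPM in fasted oligodendrocytes, and Zbtb16 spanned 75.0 to 862 CPM in fed libraries alone. Both overlapped between the groups. Errfi1 (log2 fold change of 1.22 ± 0.55) and Ddit4 (1.03 ± 0.47) were higher in both fasted libraries, while Tsc22d3 (-0.42 ± 0.50) overlapped. The inhibitory neuron markers in oligodendrocytes were at 26.3% to 75.9% of their neuronal level in fed and 47.3% and 62.5% in fasted libraries. In fasted oligodendrocytes Fkbp5 was at 163% and 218% of its level in fasted neurons. Astrocyte markers in oligodendrocytes summed to 222 to 236 CPM in fed and 330 and 451 CPM in fasted libraries. These were 2.17% to 3.39% and 3.74% and 5.98% of their level in astrocytes. Oligodendrocyte Fkbp5 amounted to 96.1% to 278% of its astrocyte level in fed and 158% in both fasted libraries. The part of other cells' RNA in the difference of Fkbp5 was not tested.

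In oligodendrocyte precursors, which entered no test of feeding, 4 of the 9 genes with at least 10 UMIs had both fasted libraries above all fed ones, against 10.4% of 9173 genes.

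Whether glia and neurons differed in their response was tested as an interaction of feeding and class. None of the 20 pairs of gene and glial class passed with the quasi-likelihood test, as 0 of 8621 genes did in either class (0.0%), nor with the likelihood ratio test (0.0232% and 0.0348% of genes). At an unadjusted p under 0.05 were 2 genes in astrocytes, against 2.56% of genes, and 1 in oligodendrocytes, against 4.87%. The log2 fold change of Fkbp5 was higher in astrocytes than in neurons by 1.00 ± 0.39 (adjusted p = 1.000), and that of Ddit4 by 1.42 ± 0.62 (adjusted p = 1.000). Ddit4 rested on few UMIs in astrocytes. For Tsc22d3 the difference of oligodendrocytes from neurons was -1.59 ± 0.48 (adjusted p = 0.876). Without fed replicate 3 this difference in Tsc22d3 passed, at -2.01 (adjusted p = 0.0112). The share of all genes that passed in that run was not counted.

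Across the 12 gated neuron classes, Fkbp5, Zbtb16 and Klf9 were higher in the fasted libraries of nearly every class. Both fasted libraries lay above all fed ones in 11 of 12 gates for Fkbp5, in 11 for Zbtb16 and in 11 for Klf9, against 10.8% of all gene and gate pairs. The gates come from the same libraries, so they are no replicates of each other, and the genes were chosen with this contrast known. The share of all genes that lay above in as many gates was not counted. Both fasted libraries lay below all fed ones in 7 gates for Nr3c2, in 3 for Nr3c1 and in 3 for Sgk1, against 8.25% of pairs. Nr3c1 went both ways and lay above in 2 gates. Of 85 pairs of gene and gate tested, out of 120, 2 passed, where 0.161% of all pairs did, 1 in each direction, and 32 had an unadjusted p under 0.05, against 5.06%. With the block 12 passed (11 higher and 1 lower), where 0.928% of all pairs did, and 7 of the 12 were Fkbp5. DESeq2 called 3 pairs, the likelihood ratio test 9 and the fit with no filter 15, against 0.128%, 0.514% and 0.39% of all pairs.

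The pair that rose was Fkbp5 in the Dlk1 gate. It was measured at 65.3, 92.1 and 42.1 CPM in fed and 213 and 235 CPM in fasted libraries, well apart, with a log2 fold change of 1.70 ± 0.25 (adjusted p = 0.00785, where 0.219% of the genes of this gate passed). Without fed replicate 1 its adjusted p was 0.0986. Astrocyte markers in this gate summed to 39.5 to 52.1 CPM in fed and 72.4 and 135 CPM in fasted libraries, 0.397% to 0.754% and 0.960% and 1.53% of their astrocyte level, and Fkbp5 was at 88.5% and 110% of its level in fasted astrocytes.

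The pair that fell was Nr3c2 in the Prkcd gate, neurons with protein kinase C delta, a class known to lower food intake. Nr3c2 was measured there at 826, 893 and 843 CPM in fed and 452 and 629 CPM in fasted libraries. The fed libraries were within a narrow band that neither fasted library reached, and the log2 fold change was -0.67 ± 0.15 (adjusted p = 0.0274, and 0.000137 with the block; 0.799% of the genes of this gate passed). With a fed library left out the log2 fold change was -0.69, -0.63 and -0.69 without replicates 1, 2 and 3 (adjusted p = 0.105, 0.0728 and 0.0685). It was -0.48 without fasted replicate 1 (adjusted p = 0.305) and -0.92 without fasted replicate 2 (adjusted p = 0.00301). Nr3c1 in the same nuclei was at 150 to 196 CPM in fed and 150 and 170 CPM in fasted libraries, with overlapping ranges. Fkbp5 had the highest level of all gates there, 205, 307 and 146 CPM in fed and 395 and 410 CPM in fasted libraries, and a log2 fold change of 0.86 ± 0.21 (adjusted p = 0.0530, and 0.00443 with the block).

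**Figure D2:**
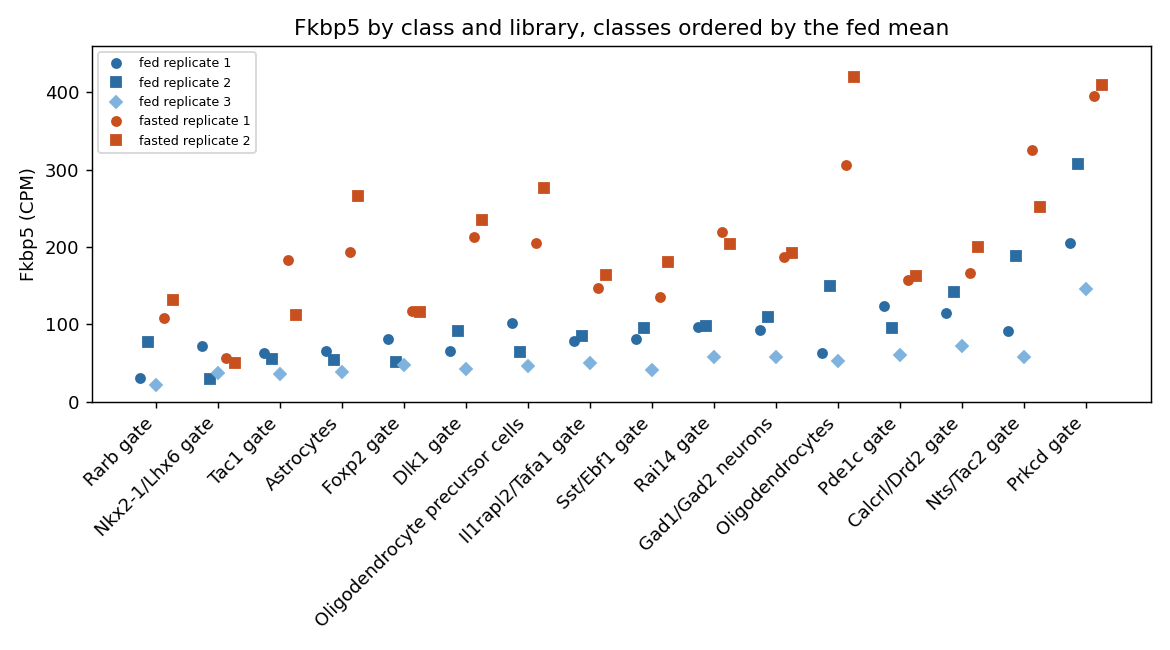
Fkbp5 (CPM) in each class and library, with classes ordered by the mean of the fed libraries, blue for fed and orange for fasted. Fasted libraries lie above all fed ones in every class but the Nkx2-1/Lhx6 gate, and the Prkcd gate has the highest fed mean, 219 CPM.

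Over the gates the log2 fold change of Fkbp5 ran from 0.32 in the Nkx2-1/Lhx6 gate, neurons marked by genes of cortical-type interneurons, to 1.70 in the Dlk1 gate, with a median of 1.11. In the Nkx2-1/Lhx6 gate Fkbp5 stood at 72.8, 29.0 and 36.9 CPM in fed and 56.1 and 50.4 CPM in fasted libraries, with 17 to 66 UMIs each, and the groups overlapped. Fed replicate 3 was the lowest fed library for Fkbp5 in 11 of 12 gates and for Zbtb16 in 10. In the pairs taken to have been prepared together, Fkbp5 was higher in the fasted library of both pairs in 11 of 12 gates, and so was Zbtb16. The share of all genes that did so was not counted, and the gates come from the same libraries. The log2 fold change of Zbtb16 was between 0.50 in the Prkcd gate and 1.73 in the Foxp2 gate (adjusted p = 0.0864, and 0.00196 with the block). In the Foxp2 gate, a gene of the intercalated cells beside the CeA, Zbtb16 was at 27.2, 42.1 and 26.2 CPM in fed and 195 and 73.7 CPM in fasted libraries. The 2 fasted libraries there differed by more than the fed libraries did.

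Klf9 had log2 fold changes of 0.02 to 0.81 in the 11 gates tested, the lowest in the Prkcd gate, where its fed level was highest (79.3 CPM). Sgk1 had log2 fold changes on both sides of zero, from -0.67 in the Nts/Tac2 gate to 0.28 in the Tac1 gate. In the Nts/Tac2 gate Sgk1 lay at 186, 122 and 156 CPM in fed and 92.4 and 105 CPM in fasted libraries, below in both (adjusted p = 0.327). Tsc22d3 and Ddit4 were dense enough for a test in 1 gate, Errfi1 in 4 and Tiparp in 8. A test of whether the response differed among the 12 gates at all, added after the data were seen, called 0 of 9 genes and 0 of 9768 overall (0.0%). Its unadjusted p was under 0.05 for Fkbp5 (0.0411, adjusted 0.858) and Nr3c2 (0.00918, adjusted 0.644), as for 5.55% of genes.

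**Figure D3:**
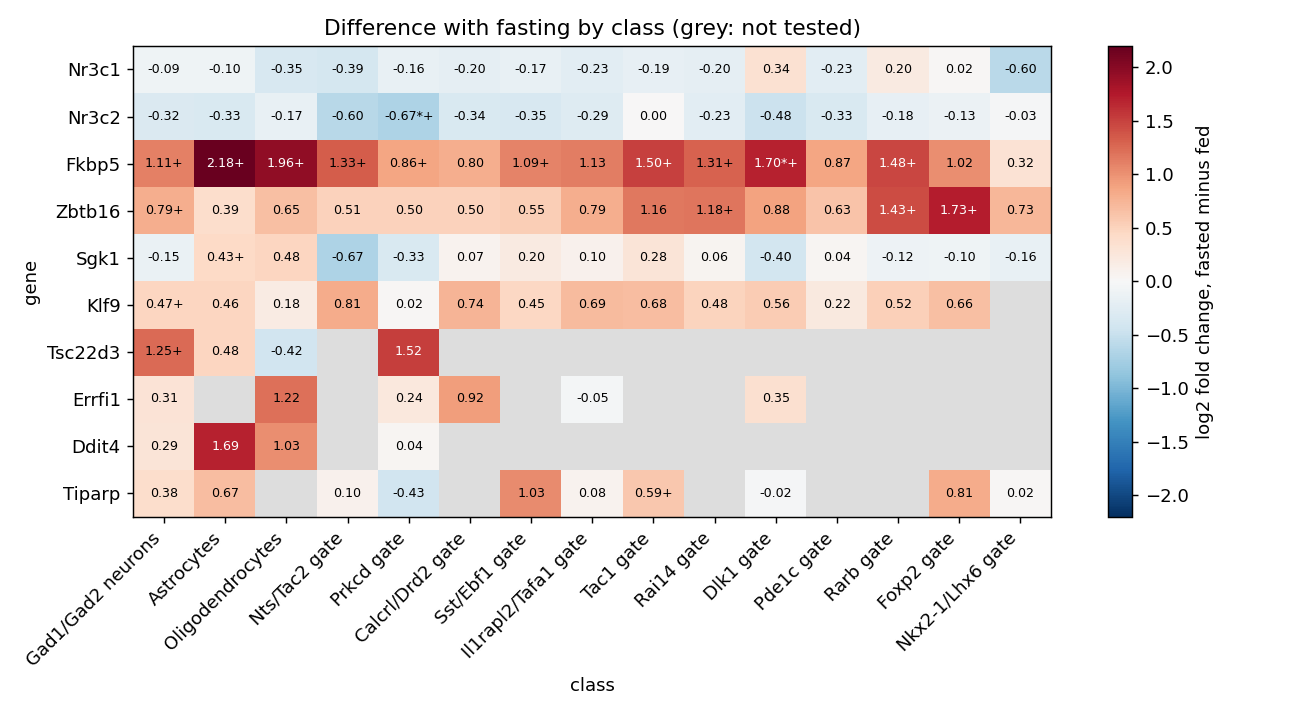
Log2 fold change, fasted minus fed, of each gene in each class, from blue (lower) to red (higher), with grey for pairs not tested, a star for an adjusted p under 0.05 and a plus for the same with the preparation batch as a block. The Fkbp5 and Zbtb16 lines are red throughout, and the stars stand at Fkbp5 in the Dlk1 gate (1.70) and Nr3c2 in the Prkcd gate (-0.67).

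The receptors themselves had different patterns over the classes of fed mice. Each class was tested against the mean of the other classes in the 3 fed libraries, with 15 classes in all. The classes and gates were formed from the same nuclei, but neither receptor was among their markers. CPM give a share of the RNA of a class, and glial nuclei held fewer UMIs each than neurons. In fed replicate 2, 101 astrocytes held 389822 UMIs and 65 nuclei of the Prkcd gate held 1262630. Levels per nucleus were not compared. Nr3c1 passed as higher in 4 classes and as lower in 3, and Nr3c2 in 5 and 6, where 11.4% of all gene and class pairs passed as higher and 7.27% as lower.

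As a share of RNA, Nr3c1 was highest in glia, at 217 ± 8.50 CPM in oligodendrocytes, 212 ± 16.8 CPM in astrocytes and 210 ± 19.3 CPM in precursors (SD, n = 3). These 3 classes passed as higher, by 0.60 ± 0.19, 0.59 ± 0.16 and 0.68 ± 0.19 on the log2 scale (adjusted p = 0.0146, 0.00193 and 0.00399). The Prkcd gate followed, at 178 ± 24.1 CPM (0.35 ± 0.13, adjusted p = 0.0351). Then came the Nts/Tac2, Dlk1, Rai14 and Tac1 gates at 166, 162, 150 and 145 CPM and the Il1rapl2/Tafa1, Calcrl/Drd2, Sst/Ebf1 and Pde1c gates at 123, 118, 108 and 100 CPM. The lowest were the Nkx2-1/Lhx6, Foxp2 and Rarb gates at 98.8, 96.1 and 89.6 CPM, and these 3 passed as lower. All 14 neighbours in this order overlapped in their fed ranges. None of the 7 classes of Nr3c1 stayed past the threshold with each fed library left out in turn. Astrocytes (0.48), oligodendrocytes (0.48) and the Nkx2-1/Lhx6 gate (-0.36) were lost without fed replicate 2, precursors (0.61) without fed replicate 3, the Rarb gate (-0.46) without fed replicate 1, the Foxp2 gate without fed replicate 1 or 2 and the Prkcd gate without fed replicate 1 or 3.

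Nr3c2 ran in another order, with the Pde1c gate highest at 962 ± 96.8 CPM, then the Prkcd gate at 854 ± 35.0 CPM, the Sst/Ebf1 gate at 805 ± 82.6 CPM and the Nts/Tac2 gate at 685 ± 38.5 CPM. These gates passed as higher, by 1.29 ± 0.12, 0.95 ± 0.11, 0.91 ± 0.12 and 0.67 ± 0.12 on the log2 scale, also with any fed library left out. The Nts/Tac2 gate and the next class, astrocytes at 564 CPM, were the only neighbours of 14 whose fed ranges lay apart. Calcrl/Drd2, Tac1, Dlk1 and Rarb gates followed at 554, 483, 453 and 377 CPM. At the low end were the Foxp2, Nkx2-1/Lhx6, Rai14 and Il1rapl2/Tafa1 gates at 305, 297, 296 and 272 CPM, precursors at 270 CPM and oligodendrocytes at 254 ± 59.8 CPM, and these 6 passed as lower. The Calcrl/Drd2 gate passed as higher by 0.36 ± 0.12, and was lost without fed replicate 1 or 2, as were precursors (-0.47) without fed replicate 1 and the Rai14 gate (-0.61) without fed replicate 2. Over 14 classes without the precursors, the levels of the 2 receptors had a Pearson's r of 0.03 and a Spearman's rho of 0.03, given as a description.

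**Figure D4:**
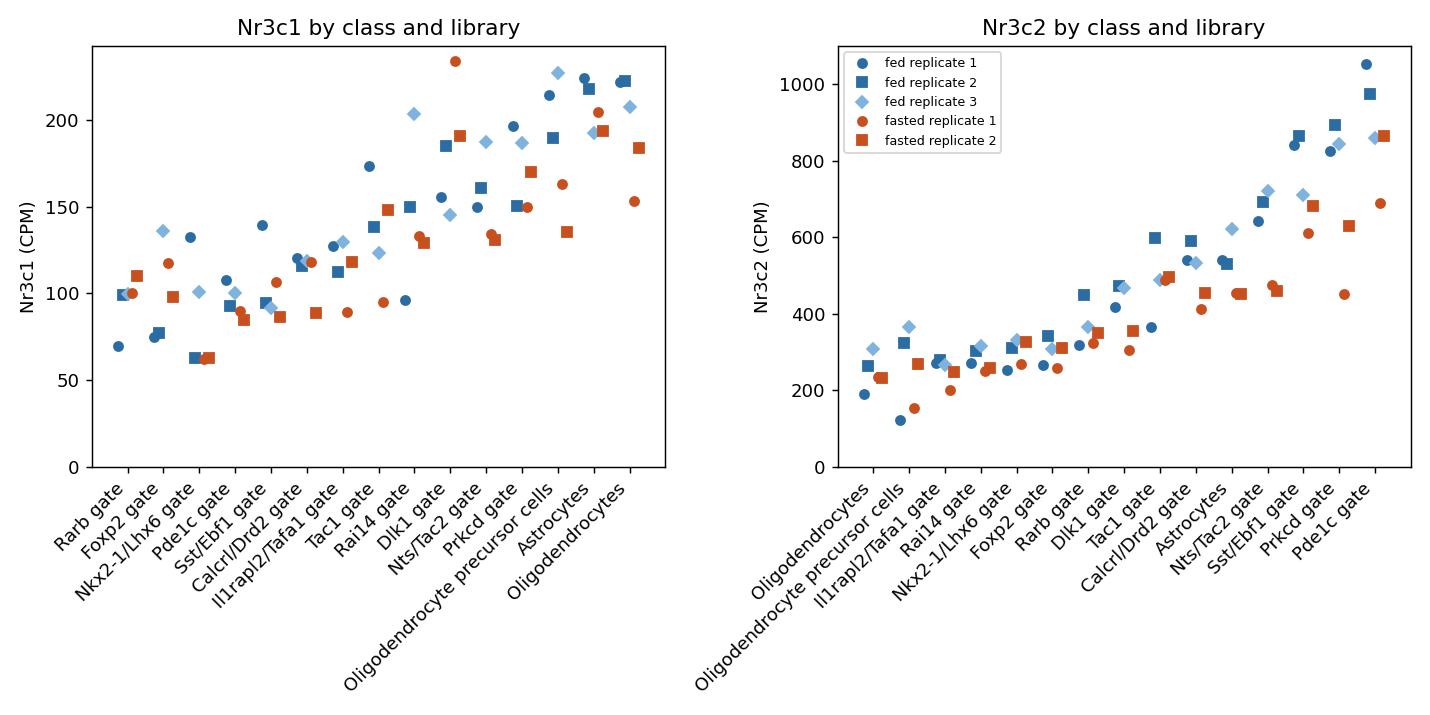
Nr3c1 (left) and Nr3c2 (right) in CPM for each class and library, with classes ordered by the mean of the fed libraries. Nr3c1 is highest in the glial classes, near 210 to 217 CPM in fed mice, and Nr3c2 in the Pde1c gate, 962 CPM.

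Fkbp5 in fed mice was highest in the Prkcd gate, 219 ± 81.6 CPM, and passed there as higher than the mean of the other classes, by 1.62 ± 0.13 on the log2 scale, also with any fed library left out. The Calcrl/Drd2 gate (0.63 ± 0.17) and the Nts/Tac2 gate (0.61 ± 0.17) passed as well, and the Nts/Tac2 gate was lost without fed replicate 2 (0.23). The Nkx2-1/Lhx6 gate, the Rarb gate and astrocytes passed as lower, by 0.95, 0.79 and 0.62 on the log2 scale. The call held in 2, 1 and 0 of the 3 runs without a fed library, with values of -1.21 to -0.33, -1.29 to -0.60 and -0.73 to -0.43. All 14 neighbours in the order of Fkbp5 overlapped in their fed ranges. Sgk1 ran from 36.9 ± 51.5 CPM in astrocytes, a mean set by fed replicate 3, to 541 ± 71.1 CPM in the Prkcd gate. Zbtb16 ran from 31.8 ± 8.91 CPM in the Foxp2 gate to 407 ± 407 CPM in oligodendrocytes (SD, n = 3), whose fed libraries lay far apart. By the likeness of levels over 15 classes in fed mice, the genes closest to Nr3c1 among 9127 were Sspn (r = 0.86), Ssbp1, Slc10a7, Dcun1d5 and Phrf1. Those closest to Nr3c2 were Pde8b (r = 0.87), Tmem116, Adam23, Slc25a53 and Ap2b1, and those closest to Fkbp5 were Slc38a6 (r = 0.89), Ncdn, Asxl1, Eif4a1 and Caprin1.

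The response was set against the receptor level of each class as a description over 14 classes, 12 gates and both glia, which share their 5 libraries. The log2 fold change of Fkbp5 had a Pearson's r of 0.67 (Spearman's rho = 0.53) with the Nr3c1 level and -0.13 (-0.23) with the Nr3c2 level. Within the 12 gates alone the r was 0.38 with Nr3c1 (rho = 0.27) and -0.05 with Nr3c2 (rho = -0.17). The Prkcd gate, with the highest Nr3c1 level among the gates, had a log2 fold change of Fkbp5 (0.86) below the gates' median. The log2 fold change of Zbtb16 had an r of -0.47 against Nr3c1 and -0.53 against Nr3c2 over 14 classes, and -0.36 and -0.63 within the gates (rho = -0.46 and -0.66). The Pde1c, Prkcd and Sst/Ebf1 gates, highest in Nr3c2, had Zbtb16 log2 fold changes of 0.63, 0.50 and 0.55. The Foxp2, Rarb and Rai14 gates, named for their larger changes of 1.73, 1.43 and 1.18, held 305, 377 and 296 CPM of Nr3c2. The gate lowest in Nr3c2 was Il1rapl2/Tafa1 (272 CPM), and the Nkx2-1/Lhx6 gate held 297 CPM. Fed Zbtb16 itself passed as lower than the mean of the other classes in the Foxp2, Rarb and Rai14 gates. The differences were -2.10, -1.94 and -1.16 on the log2 scale. The call for the Rai14 gate held in 1 of the 3 runs without a fed library, and the others held in all 3. For Sgk1 the r was 0.16 with Nr3c1 and -0.23 with Nr3c2 over 14 classes, and -0.42 and -0.14 within the gates, so its sign with Nr3c1 turned without the glia, and for Klf9 it was -0.08 and -0.51 over 11 gates. These values compare 14 points at most, and the fed levels also enter the fold changes. The receptor levels are shares of the RNA of a class, and levels per nucleus were not set against the response.

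**Figure D5:**
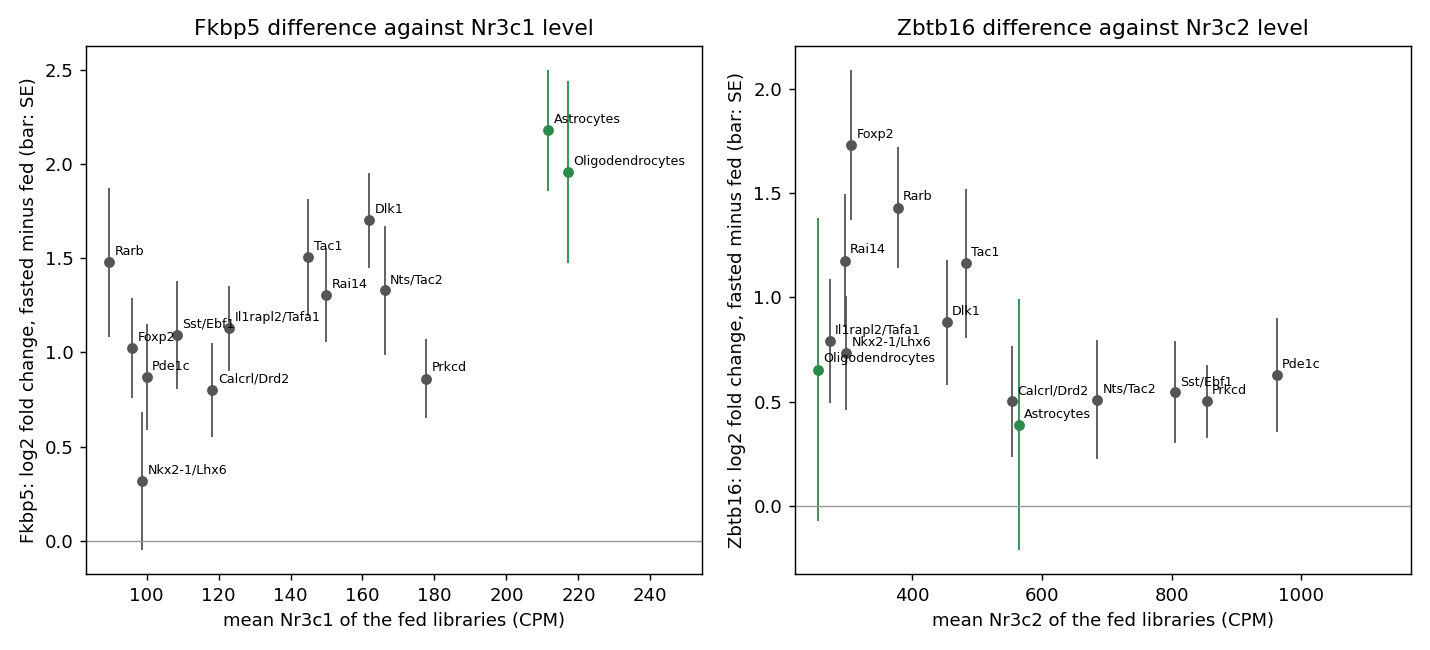
Left, log2 fold change of Fkbp5 (fasted minus fed, bar for the SE) against the mean Nr3c1 level of the fed libraries (CPM) by class. Right, the same for Zbtb16 against Nr3c2. Grey points are gated neuron classes and green points glia, which lie at the right of the left panel with log2 fold changes of 2.18 and 1.96.

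Other genes of the pathway were read from lists. The lists were chosen with earlier results of these data known, so their counts describe them and are no independent evidence. Of 50 further genes known to be induced by glucocorticoids, 40 were tested in the Gad1/Gad2 neurons and 0 passed with the quasi-likelihood test, 15 had an unadjusted p under 0.05 (against 5.3% of genes). DESeq2 called 3 (0.704% of genes), the likelihood ratio test 9 (1.08%) and the block 8 (2.9%), all of them higher. The median log2 fold change was 0.29, against -0.01 over all genes. In astrocytes 0 of 23 passed, 4 had an unadjusted p under 0.05 (5.04% of genes), DESeq2 and the likelihood ratio test called 0 (0.464% and 1.1%) and the block 1 (4.59%). In oligodendrocytes 0 of 15 passed, 2 had an unadjusted p under 0.05 (5.1%), DESeq2 called 0 (0.0%), the likelihood ratio test 1 (1.04%) and the block 2 (10.1%). In the gates 4 of 184 pairs passed (0.161% of all pairs), 35 had an unadjusted p under 0.05 (5.06%), DESeq2 called 4 (0.128%), the likelihood ratio test 18 (0.514%) and the block 13 (0.928%). The 4 pairs were all for Mt1, a metallothionein that binds zinc and is named here after its values were seen. In the Dlk1 gate Mt1 was at 9.0, 2.47 and 8.86 CPM in fed and 62.1 and 59.0 CPM in fasted libraries. The log2 fold change was 3.27 ± 0.39 (adjusted p = 0.000694 with the quasi-likelihood test). The fed libraries of this gate summed to 444340, 1215769 and 902452 UMIs over all genes, so these fed levels rest on few UMIs. The other gates were the Prkcd (2.14), Calcrl/Drd2 (2.70) and Foxp2 (2.58) gates. In fasted astrocytes Mt1 was at 216 and 1007 CPM and in fed ones at 106 to 287 CPM, and the part of glial RNA in its rise in the neurons was not tested.

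The 12 chaperones of the receptor and enzymes of steroid metabolism gave 0 calls among 11 tested in the neurons (0 at an unadjusted p under 0.05, 0 with DESeq2, 2 with the block, Hspa8 and Hsp90aa1, heat shock proteins that fold the receptor, named after their values were seen, which rose by 0.40 and 0.30 on the log2 scale). Clock genes, several of which glucocorticoids reset, gave 0 of 15 (3 unadjusted, 0 with DESeq2), and with the block 1, Rorb, also named after its value was seen, which fell by 0.52 on the log2 scale. Immediate-early genes gave 0 of 11 (0 unadjusted, 0 with DESeq2 and 0 with the block), and genes of insulin and FoxO signalling 0 of 10 (1, 0 and 0). Of all genes tested in the neurons, 5.3% had an unadjusted p under 0.05, and 0.704% and 2.9% passed with DESeq2 and the block. In astrocytes none of these 4 lists had a call with the quasi-likelihood test, DESeq2 or the block. The genes tested there were 9 chaperone, 14 clock, 0 immediate-early and 7 insulin and FoxO genes, and 1 of them, a chaperone gene, had an unadjusted p under 0.05. Of all astrocyte genes 5.04% had such a p, and 0.464% and 4.59% passed with DESeq2 and the block. In oligodendrocytes 8 chaperone, 7 clock, 0 immediate-early and 6 insulin and FoxO genes were tested. None passed with the quasi-likelihood test or DESeq2 (0.0% of genes). There 1 clock gene had an unadjusted p under 0.05 (5.1% of genes), and the block called 1 clock gene, as higher (10.1%). The clock genes had a median log2 fold change of 0.47, and 0.23 with the block, against 0.01 and 0.02 over all genes. In the gates none of the 4 lists had a call with the quasi-likelihood test, DESeq2 or the likelihood ratio test. At an unadjusted p under 0.05 were 2 of 113 chaperone, 12 of 131 clock, 13 of 47 immediate-early and 3 of 81 insulin and FoxO pairs, against 5.06% of all pairs, and the block called 1, 0, 1 and 1 (0.928% of all pairs). The median log2 fold change of the immediate-early pairs was -0.33, against -0.01 over all pairs, and -0.05 with the block.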

How the data were processed

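Nuclei were isolated from pooled CeA tissue of 2 mice per library and sequenced with a 10x 3′ method, intronic reads included. The authors deposited unnormalized counts of UMIs for each gene in each barcode. The file headers name Cell Ranger 5.0.0 and the study's methods GRCm39, while the submitters' processing notes name Cell Ranger 2.1.1 and mm10. Nuclei with 500 to 8000 genes and mitochondrial UMIs below 0.8% were kept. Scrublet in scanpy 1.11.5 called 70 doublets (0.978%), which were kept.

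Nuclei were assigned by the mean log-scaled level of marker genes. A glial class needed a score of 1.0, with 47 and 30 nuclei between 0.8 and 1.2 for astrocytes and oligodendrocytes. A gate needed a score of 1.5 SD and a lead of 0.5 SD over the next. These limits were set after the scores had been seen. Counts were summed per class and library where each library had at least 10 nuclei, and tested with edgeR 4.0.16 (glmQLFit and glmQLFTest, TMM, filterByExpr, Benjamini-Hochberg over all genes, threshold 0.05; R 4.3.3). Levels are CPM. DESeq2 1.42.0 and other settings were alternatives. The tests were also run on simulated counts with known changes for the Gad1/Gad2 neurons, astrocytes and the Prkcd gate, over all genes of a class at once. The outcome is not given here. The simulated counts held no effect of preparation batch, so they cannot show how the fit with the block does where there is one. P-values without the block measure the spread between libraries, of which a group has 3 or 2. With the block, 2 pairs of libraries carry the difference. Little is then left to measure its spread, and such p-values lean on a spread shared over many genes.

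The study's supplement names pairs of fed and fasted libraries prepared together under its own library numbers, and a further fed library prepared alone. These numbers were taken to be the replicate numbers of the labels, and fed replicate 3 to be the library prepared alone, by elimination. All values with the block rest on this. The block pairs fed and fasted libraries, and fed replicate 3 does not enter the blocked difference. Deviations from the group means correlated at 0.408 and 0.620 for replicates 1 and 2 in Gad1/Gad2 neurons, 0.0451 and 0.00760 in astrocytes and 0.0315 and 0.0423 in oligodendrocytes. The fasted libraries 1 and 2 deviate from their own mean by equal and opposite amounts, so the values of a class are not independent. Other pairings were not compared, so these values do not test the assumed one.

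The 10 genes, the lists and the gates were chosen with earlier results of these data known. Every one of the 10 genes was described, list genes were to be named where they passed the test in neurons or astrocytes (up to 6 per list), and the 5 genes nearest to each of 3 genes were taken by Pearson's r of mean log2(CPM + 1) among genes of at least 20 CPM in a class. Motifs were searched on GRCm39 with GENCODE vM39, and promoter windows came from RefSeq (GRCm38.p6). The sequence of Nr3c1 is not reported here.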

Additional observations from a re-analysis of the deposited data

Results flagged for a closer look

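Oligodendrocyte precursors, 17 to 48 nuclei per library, entered no comparison of fed and fasted mice. There 5 of the 10 genes were higher in both fasted than in all fed libraries, 1 of them, Ddit4, on 0 UMIs in fed and 1 and 4 in fasted libraries. Among genes with at least 10 UMIs the count was 4 of 9, against 10.4% of 9173 genes. Fkbp5 was measured at 102, 64.9 and 46.9 CPM in fed and 206 and 277 CPM in fasted precursors. Zbtb16 was at 174, 260 and 105 CPM in fed and 317 and 262 CPM in fasted libraries, so that its lower fasted library was close to the highest fed one. Sgk1 was at 235, 243 and 216 CPM in fed and 368 and 369 CPM in fasted libraries, and Klf9 at 10.2, 43.3 and 18 CPM in fed and 51.4 and 76.3 CPM in fasted ones. The differences in precursors were not tested.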

How the results depend on the processing

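The main fit was the quasi-likelihood test with low counts filtered and no block. With it, 0 of the 10 genes passed in Gad1/Gad2 neurons, astrocytes or oligodendrocytes and 2 pairs in the gates. The likelihood ratio test called 2, 1, 1 and 9, DESeq2 called 2, 1, 0 and 3, no filter on low counts gave 2, 1, 1 and 15, and the replicate block, which pairs libraries by preparation batch, gave 4, 2, 1 and 12. Leaving out each library gave 0 in neurons, 0 to 2 in astrocytes, 0 in oligodendrocytes, 0 to 5 pairs in the gates, 0 to 1 interactions and 12 to 16 receptor and class pairs, against 18 with all fed libraries, that leave-one-out having been added after the data were seen. In the gates, 0 pairs passed without fed replicate 1, 4 without fed replicate 2, 1 without fed replicate 3, 3 without fasted replicate 1 and 5 without fasted replicate 2. Of the 2 pairs that passed with all libraries, Fkbp5 in the Dlk1 gate was among these in 4 of the 5 runs and Nr3c2 in the Prkcd gate in 1, without fasted replicate 2. The shares of all genes and pairs that passed with a library left out were not counted. Log2 fold changes turned sign for Nr3c1 in astrocytes with thinned counts (0.13) and for Zbtb16 in astrocytes with the block (-0.14). That of Klf9 in oligodendrocytes turned with the block (-0.22). Leaving out each library turned Nr3c1 in astrocytes (-0.18 to 0.0023, above zero without fed replicate 2), Zbtb16 in astrocytes (-0.14 without fed replicate 3 to 1.21), Sgk1 in astrocytes (-0.082 without fed replicate 2 to 2.90), Sgk1 in oligodendrocytes (-0.20 without fasted replicate 2 to 1.51), Klf9 in oligodendrocytes (-0.19 without fed replicate 3 to 0.84) and Tsc22d3 in oligodendrocytes (-0.79 to 0.29, above zero without fed replicate 2). None of the values that turned passed the threshold, and Sgk1 in astrocytes passed without fed replicate 3. The causes were not tested. The other 332 values for single genes kept their direction and their side of the threshold, 21 more passed and 5 no longer passed. The bound of 2000 genes per nucleus left under 10 nuclei in a library of astrocytes and oligodendrocytes and was not run there. Fkbp5 rested on 10 to 209 UMIs per library in astrocytes and 804 to 5190 in the neurons. The simulated counts covered all genes of a class at once, so what difference could be seen at the depth of Fkbp5 alone was not measured.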
